A study of Homo sapiens with 2 samples.

Results

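The genes described here encode the heat shock proteins of the cytosol and of mitochondria. They are 10 genes given by name, HSPA1A, HSPA1B, HSPA8, HSP90AA1, HSPH1, DNAJB1, HSPB1, BAG3, HSPD1 and HSPE1, found by their symbols in a table of 20323 genes. All 10 were present once each and all 10 passed the minimum used here for an expressed gene (1 CPM and 20 counts in the higher library, CPM being counts scaled to a library of 1e6), as did 12218 genes in all. The libraries came from MDA-MB-231, a human triple-negative breast cancer cell line, and held polyadenylated RNA from cells given either a negative-control siRNA or an siRNA against HNRNPF, an RNA-binding protein of the hnRNP family. The control group and the HNRNPF siRNA group had 1 library each, both from the same line with no other treatment in the labels, so no value below can be set against a spread between replicates, and p-values are not given. In bulk RNA, fewer cells of a type and less RNA per cell cannot be told apart. Intervals are 95% intervals of counting error only, and "higher" and "lower" compare these 2 libraries.

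Heat shock proteins are molecular chaperones that bind unfolded polypeptides and help them to fold, to be refolded or to be degraded. HSP70 proteins work in a cycle of ATP hydrolysis in which J-domain proteins deliver clients and nucleotide exchange factors release them, and HSP90 receives part of these clients, among them many kinases of cancer cells. In mitochondria the chaperonin HSP60 and its lid HSP10 fold imported proteins. Transcription of most of these genes is raised by heat shock factor 1 (HSF1), which binds arrays of inverted GAA units in their promoters, and cancer lines often express them at a high level without heat.

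In the libraries themselves, 20654622 estimated counts were assigned to genes in control cells and 20134572 with the HNRNPF siRNA. HNRNPF, the target, had 6373 and 2451 counts, which is 38.8% of control (95% interval 37.0% to 40.6%). All 8 markers chosen for MDA-MB-231, VIM and AXL among them, were expressed, with summed FPKM (fragments per kilobase of transcript per 1e6 fragments) of 3335 and 3293. Of 6 genes listed as absent or low in this line 3 passed the minimum, with a summed FPKM of 20.8 and 23.2, most of it from the receptor ERBB2 (17.4 and 19.9), and the hormone receptor PGR was at 0 counts. All 6 haematopoietic markers were at 0 counts in the control library, and the 4 endothelial and 5 fibroblast markers summed to 0.980 and 5.21 FPKM there. The table heads its second library si848, a name the labels do not use, and that library was matched to the HNRNPF siRNA by the name of the table.

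The sequences of HSPA1A and HSPA1B are shown first, because they set how far these genes can be told apart. Both lie on chromosome 6 of GRCh38 on the plus strand, HSPA1A at 31815464 to 31817946 and HSPA1B at 31827735 to 31830255, and both consist of 1 exon. Their coding sequences have 1926 bases each and differ at 4 positions, all of them at the last base of a codon and synonymous. The first 1709 bases are identical. The differences, counted from the A of the start codon and written as the HSPA1A base, position and HSPA1B base, are G1710T, G1860C, C1905T and A1920G. The last 226 bases of each coding sequence, from the GENCODE 29 transcripts, follow with the differing bases in capitals.
HSPA1A: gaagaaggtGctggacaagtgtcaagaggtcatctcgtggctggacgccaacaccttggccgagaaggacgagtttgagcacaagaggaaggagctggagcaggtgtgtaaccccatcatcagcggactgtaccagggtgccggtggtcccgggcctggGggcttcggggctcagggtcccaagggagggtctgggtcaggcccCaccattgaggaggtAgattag
HSPA1B: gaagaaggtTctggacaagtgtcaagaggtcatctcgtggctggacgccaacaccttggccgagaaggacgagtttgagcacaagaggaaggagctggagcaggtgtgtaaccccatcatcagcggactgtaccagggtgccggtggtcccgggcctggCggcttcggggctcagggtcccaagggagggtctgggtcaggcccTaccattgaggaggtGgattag

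Outside the coding sequence the copies differ more. The 5' UTRs were 65.5% identical over their alignment, in which 77 columns are gaps. In the columns without gaps, 192 bases were identical and 24 differed. The 3' UTRs were 49.1% identical, with 131 gap columns. Of the windows of 75 bases along the HSPA1A transcript, 71.2% occur unchanged in HSPA1B, so only reads that touch the UTRs or the end of the coding sequence can tell the genes apart. The counts of both genes were not whole numbers, which is what the authors' counting gives when it divides reads between genes. The counts of the genes together are therefore firmer than the count of either.

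**Figure D1:**
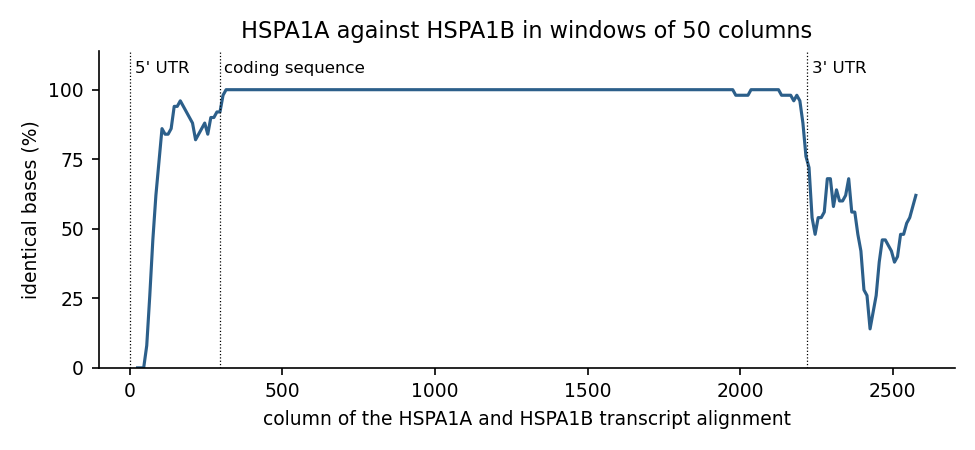
Percent of identical bases (y axis) between the HSPA1A and HSPA1B transcripts in windows of 50 alignment columns (x axis), with dotted lines where the 5' UTR, coding sequence and 3' UTR begin. The coding sequence lies at or near 100% throughout and the UTRs fall away on both sides; the 0% at the left edge is the stretch where the HSPA1A annotation starts further upstream.

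The promoters of the pair are also close copies. Over the 250 bases before the RefSeq start (GRCh38.p14) they were 93.6% identical, and each held a heat shock element as 1 pair of inverted units, GAANNTTC, at nearly the same place. The promoter windows are HSPA1A chr6:31815293-31815542 and HSPA1B chr6:31827488-31827737, both plus strand, with the match in capitals.
HSPA1A: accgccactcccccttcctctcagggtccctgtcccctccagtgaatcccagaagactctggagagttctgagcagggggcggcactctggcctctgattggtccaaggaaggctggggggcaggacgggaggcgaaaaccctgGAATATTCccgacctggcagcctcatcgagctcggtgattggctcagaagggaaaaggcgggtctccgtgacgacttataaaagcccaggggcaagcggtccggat
HSPA1B: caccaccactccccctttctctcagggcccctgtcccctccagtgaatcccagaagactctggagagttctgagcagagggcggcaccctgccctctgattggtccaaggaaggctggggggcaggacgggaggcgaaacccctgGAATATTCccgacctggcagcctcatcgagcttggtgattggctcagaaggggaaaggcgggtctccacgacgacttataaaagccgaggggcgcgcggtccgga

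HSPA1A and HSPA1B encode the stress-inducible HSP70. HSPA1B had 6053 counts and 116 FPKM in the control library and 7544 counts and 149 FPKM in the HNRNPF siRNA library. HSPA1A was assigned 98.9 counts and 2.0 FPKM in the control and 108 counts and 2.24 FPKM in the HNRNPF siRNA library. Nearly all reads of the pair were given to HSPA1B in both libraries. HSPA1B was higher in the HNRNPF siRNA library, with a log2 ratio of CPM of 0.33 (interval 0.28 to 0.38), while the interval of HSPA1A, 0.13 (-0.27 to 0.54), held 0. Counts summed over the pair were 6152 and 7652, or 125% of control, with a log2 ratio of 0.33 (interval 0.28 to 0.37).

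HSPA8 encodes the constitutive HSP70, HSC70, which also removes clathrin coats from vesicles. Its level was 1218 FPKM (56311 counts) in the control library and 980 FPKM (44028 counts) in the HNRNPF siRNA library. It stood at 78.8% of control (interval 77.8% to 79.8%), a log2 ratio of -0.34. Its direction was opposite to that of the inducible pair. The FPKM of HSPA1B was 0.0956 of that of HSPA8 in control cells and 0.152 of it with the HNRNPF siRNA, and the log2 ratios of HSPA1B and HSPA8 differed by 0.67 (exact interval 0.62 to 0.72). Because HSPA8 is the larger, HSPA1A, HSPA1B and HSPA8 together were lower, at 83.4% of control. The coding sequences of HSPA1A and HSPA8 are 73.8% identical, and no window of 75 bases of HSPA8 occurs in another gene of the table. HSPA8 lies at chromosome 11, 123057489 to 123063230, minus strand.

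By exact spelling, the promoter of HSPA8 held more heat shock elements than those of the inducible pair. Units in other spellings were not counted, so the full number of elements was not compared. The 250 bases before its start (chr11:123062137-123062386, minus strand) have 2 arrays of 3 inverted units each, in capitals.
HSPA8: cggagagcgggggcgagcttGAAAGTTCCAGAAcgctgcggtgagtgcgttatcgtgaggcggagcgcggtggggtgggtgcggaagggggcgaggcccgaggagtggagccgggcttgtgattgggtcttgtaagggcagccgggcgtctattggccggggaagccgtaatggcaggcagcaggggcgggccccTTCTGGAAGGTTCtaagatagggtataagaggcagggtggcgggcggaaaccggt

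**Figure D2:**
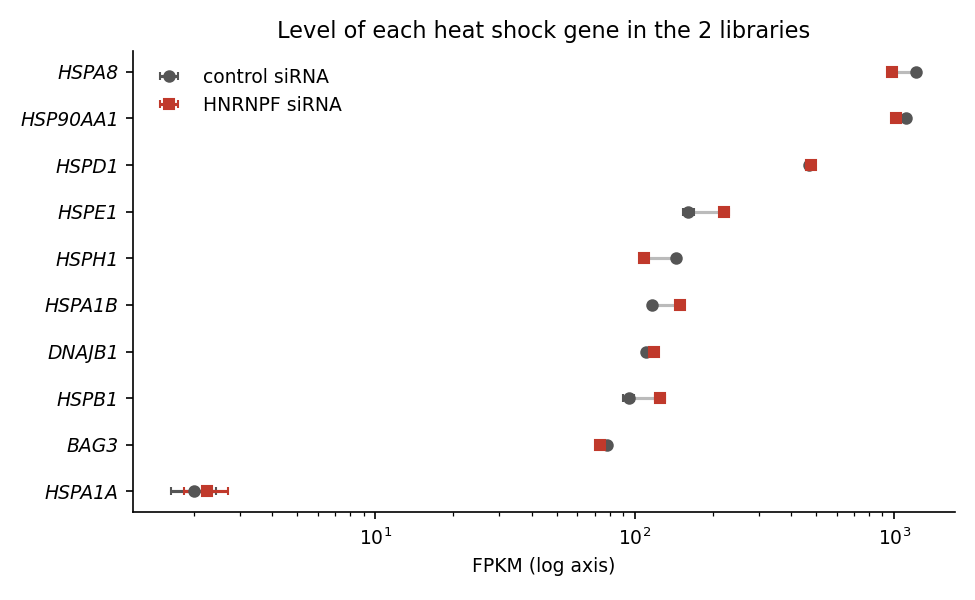
FPKM of each heat shock gene (log x axis) in the control library (grey circles) and the HNRNPF siRNA library (red squares), ordered by the control level, with bars for the exact 95% Poisson interval of the counts. HSPA8 and HSP90AA1 lie near 1000 FPKM in both libraries, HSPA1A near 2, and HSPE1, HSPA1B and HSPB1 are displaced to the right and HSPH1 and HSPA8 to the left with the HNRNPF siRNA.

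Partners of the HSP70 cycle lay on both sides of control. DNAJB1, a J-domain protein that delivers clients to HSP70 (chromosome 19, 14514770 to 14529770, minus strand), had 111 FPKM (4650 counts) in control cells and 119 FPKM (4928 counts) with the HNRNPF siRNA. Its log2 ratio was 0.09 (interval 0.04 to 0.15), a small difference. HSPH1, an HSP110 protein that acts as a nucleotide exchange factor of HSP70 (chromosome 13, 31134974 to 31162388, minus strand), had 144 FPKM (10523 counts) in control cells and 108 FPKM (7742 counts) with the HNRNPF siRNA. Its ratio was the lowest of the 10 genes, at 74.1% of control (interval 72.0% to 76.3%), a log2 ratio of -0.43. BAG3, another exchange factor that links HSP70 to selective autophagy (chromosome 10, 119651370 to 119677819, plus strand), had 78.1 FPKM (3997 counts) and 73.2 FPKM (3629 counts), a log2 ratio of -0.13 (interval -0.19 to -0.06). The FPKM of HSPH1 was 1.3 times that of DNAJB1 in control cells and 0.912 times with the HNRNPF siRNA, so the order of these genes was exchanged, and their log2 ratios differed by -0.53 (exact interval -0.60 to -0.45).

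HSPH1 was also the single gene of the 10 whose 3' UTR holds GGAAGAA, a heptamer that was picked on these same libraries for its frequency in lower genes, so that its presence is a description and nothing more. Of expressed genes with an annotated 3' UTR, 20.2% held it. The site starts at base 608 of the 2269 bases of the HSPH1 3' UTR and is printed with the heptamer in capitals. This 3' UTR belongs to a GENCODE transcript of 5191 bases. The counts and FPKM of HSPH1 imply 3537 and 3547 bases in the control and HNRNPF siRNA libraries. Whether the counted transcripts hold the site is therefore not known. HSPA8 and HSP90AA1, which were also lower, held none.
HSPH1: agtgtggaatGGAAGAAatgtcgatcc

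HSP90AA1 encodes the stress-inducible HSP90 of the cytosol (chromosome 14, 102080738 to 102139699, minus strand). It had 1114 FPKM (73857 counts) in control cells and 1015 FPKM (65744 counts) with the HNRNPF siRNA, the most counts of the 10 genes in both. The log2 ratio was -0.16 (interval -0.17 to -0.14), or 89.7% of control, and -0.10 once corrected for transcript GC content and length, as described for HSPB1. Its constitutive partner HSP90AB1, which is not one of the 10, had 887 and 853 FPKM and a log2 ratio of -0.08 (interval -0.10 to -0.06). HSP90AA1 stood below HSPA8 in FPKM in control cells and above it with the HNRNPF siRNA, at 0.914 and 1.04 times its level. Of windows of 75 bases of HSP90AA1, 6.35% also occur in processed pseudogenes, none of which is in the table.

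HSPB1 encodes HSP27, a small heat shock protein that holds unfolded proteins without using ATP (chromosome 7, 76302544 to 76304295, plus strand). It had 94.8 FPKM (1525 counts) in control cells and 126 FPKM (1969 counts) with the HNRNPF siRNA. This is a log2 ratio of 0.38 (interval 0.28 to 0.48), or 130% of control, and the intervals of its FPKM did not overlap. Its transcript has the highest GC content of the 10, 64.5%. Once the dependence of the log2 ratio on transcript GC content and length, fitted over expressed genes, was subtracted, its log2 ratio was 0.16. The part of that dependence in the result was not tested.

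HSPD1 and HSPE1 encode the mitochondrial chaperonin HSP60 and its lid HSP10, and lie head to head on chromosome 2. The annotated HSPD1 gene (197486581 to 197516737, minus strand) spans the whole HSPE1 gene (197499994 to 197503457, plus strand) on the other strand. The RefSeq start of HSPE1 lies 105 bases from one start of HSPD1 and 539 bases from another, and the genes share this stretch as their promoter region. The 250 bases before the second HSPD1 start (chr2:197499841-197500090, minus strand) hold an array of 4 alternating units, in capitals. The 250 before the HSPE1 start (chr2:197500129-197500378, plus strand) hold no pair of units in this exact spelling. The HSPD1 array also lies upstream of the HSPE1 start, but before the HSPE1 window begins. Its absence from the HSPE1 window therefore depends on where that window was cut.
HSPD1: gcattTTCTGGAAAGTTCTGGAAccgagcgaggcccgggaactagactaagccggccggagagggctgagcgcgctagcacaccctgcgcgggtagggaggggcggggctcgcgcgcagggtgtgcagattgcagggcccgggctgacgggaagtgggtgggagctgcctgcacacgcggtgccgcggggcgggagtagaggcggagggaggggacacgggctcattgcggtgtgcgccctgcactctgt
HSPE1: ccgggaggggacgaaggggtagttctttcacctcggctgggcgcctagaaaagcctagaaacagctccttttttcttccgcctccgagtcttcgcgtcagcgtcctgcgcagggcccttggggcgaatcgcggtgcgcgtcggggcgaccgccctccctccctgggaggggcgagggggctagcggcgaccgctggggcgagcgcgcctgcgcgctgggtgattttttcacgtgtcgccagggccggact

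The chaperonin genes differed from each other across the libraries. HSPD1 had 469 FPKM (21722 counts) in the control library and 478 FPKM (21407 counts) in the HNRNPF siRNA library, and a log2 ratio of CPM of -0.01 (interval -0.04 to 0.02). HSPE1 had 161 FPKM (1841 counts) and 221 FPKM (2470 counts). Its ratio was the highest of the 10 genes, at 135% of control (interval 127% to 144%), a log2 ratio of 0.43. HSPE1 stood at 0.343 of the FPKM of HSPD1 in control cells and at 0.463 of it with the HNRNPF siRNA, and the log2 ratios differed by 0.44 (exact interval 0.35 to 0.54). Counts of HSPE1 were not whole. Of its windows of 75 bases, 43.9% occur in another annotated gene. The pseudogenes HSPE1P3, HSPE1P2 and HSPE1P4 hold 6.39%, 5.37% and 5.14%. Of the windows, 13.6% occur in the readthrough gene HSPE1-MOB4, which had 56.8 and 10.7 counts, and 21.7% in a transcript of HSPD1 on the other strand. No source used here says whether strand was used in counting, and without strand the reads of this overlap cannot be told apart. Summed with HSPE1-MOB4, HSPE1 had a log2 ratio of 0.40 (interval 0.31 to 0.48).

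**Figure D3:**
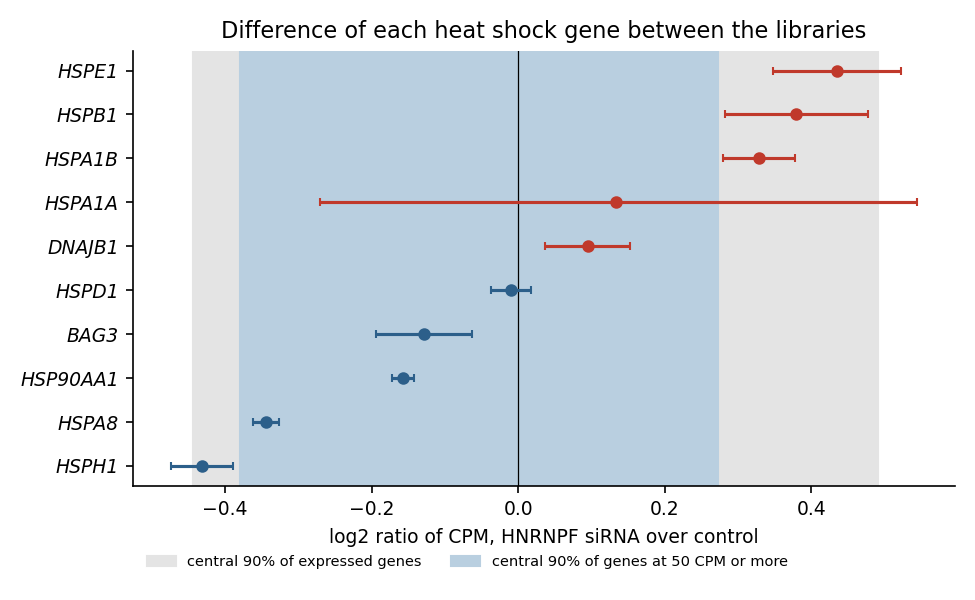
Log2 ratio of CPM, HNRNPF siRNA over control (x axis), of each heat shock gene, with bars for the exact 95% counting interval, over the central 90% of expressed genes (grey) and of genes at 50 CPM or more (blue). HSPE1, HSPB1 and HSPA1B lie to the right of the blue band and HSPH1 to its left, and the other 6 points lie inside it. Points and bands are drawn without the correction for GC content and length.

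Across the 10 genes, 5 were higher and 5 lower, with a median log2 ratio of 0.04 beside 0.00 for all expressed genes. Over all expressed genes, 49.85% were lower. With HSPA1A and HSPA1B summed as 1 gene, the median of the 9 values was -0.01, and it was -0.13 without the 3 genes with fractional counts, so its sign is not settled. At 1.2-fold, 3 genes were higher (HSPE1, HSPB1 and HSPA1B), where 14.8% of expressed genes were, and 2 were lower (HSPH1 and HSPA8), where 12.6% were. None of the 10 reached 1.5-fold, which 3.4% of expressed genes passed upward and 2.68% downward, or 2-fold, which 0.884% and 0.589% passed. The counting interval lay above 0 for 4 genes (the 3 above and DNAJB1) and below 0 for 4 (HSPH1, HSPA8, HSP90AA1 and BAG3), against 21.5% and 24.5% of expressed genes. Genes with many counts have narrow intervals, and most of the 10 have many.

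The central 90% of log2 ratios ran from -0.44 to 0.49 over expressed genes and from -0.38 to 0.27 over those at 50 CPM or more, and 9 of the 10 heat shock genes, all but HSPA1A, reached 50 CPM. Of the 5040 genes at that level, 5.38% were higher by 1.2-fold or more and 11.1% were lower by as much, beside 3 and 2 of these 9. At 1.5-fold the shares were 0.397% and 1.71%, beside 0 of 9 in either direction. The counting interval lay above 0 for 23.6% and below 0 for 38.8% of these genes, beside 4 and 4 of 9. Among them HSPE1 lay at percentile 98.8, HSPB1 at 98.1 and HSPA1B at 97.0 of the log2 ratio, and HSPH1 at 3.79 and HSPA8 at 6.29. With the correction for GC content and length, the log2 ratios of these genes were 0.35, 0.16, 0.26, -0.36 and -0.32 in the same order. No percentile was computed from corrected ratios. Genes of this set are not independent replicates, and the percentiles given describe the 2 libraries.

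**Figure D4:**
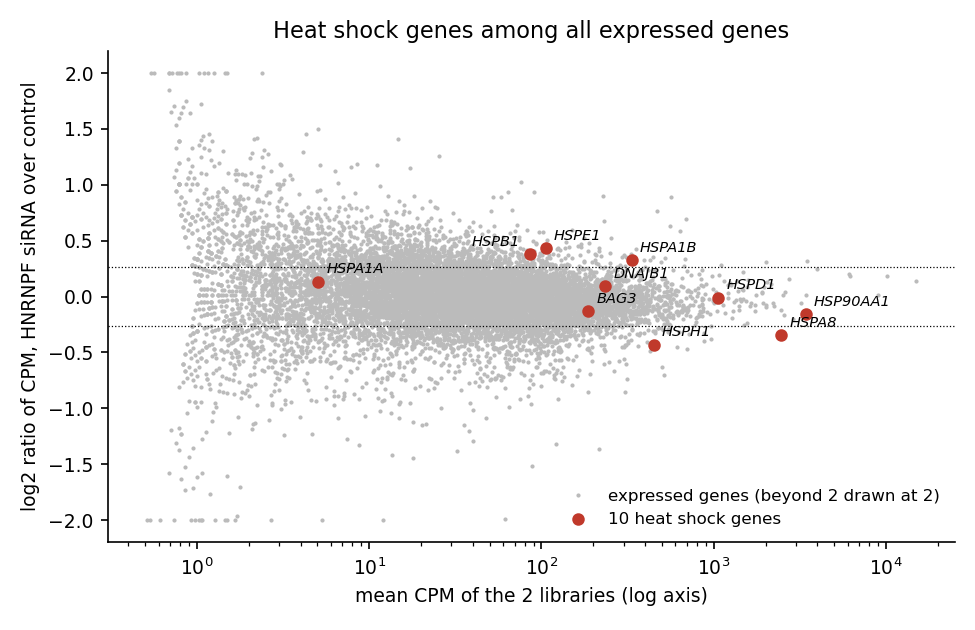
Log2 ratio of CPM (y axis, HNRNPF siRNA over control) against mean CPM (log x axis) of all expressed genes (grey points) and the 10 heat shock genes (red), with dotted lines at 1.2-fold and values beyond 2 drawn at 2. The grey cloud narrows to the right, and 5 red points, HSPE1, HSPB1, HSPA1B, HSPH1 and HSPA8, lie outside the dotted lines.

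Levels kept much of their order. In the control library the order of FPKM ran from HSPA8 and HSP90AA1 through HSPD1, HSPE1, HSPH1, HSPA1B, DNAJB1, HSPB1 and BAG3 to HSPA1A. The neighbours HSPA1B (116 FPKM) and DNAJB1 (111 FPKM) had overlapping exact Poisson intervals and were not separated beyond counting error there. In the HNRNPF siRNA library HSPA1B and HSPB1 stood above DNAJB1 and HSPH1 below it, and the intervals of HSPB1 (120 to 131 FPKM) and DNAJB1 (115 to 122 FPKM) overlapped. Among all genes of the table, ranked from the highest FPKM, HSPA1B stood at rank 606 in control cells and 436 with the HNRNPF siRNA, and HSPH1 at ranks 454 and 652.

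Counts of the 10 genes summed to 0.874% of the total counts of the control library and 0.792% of those of the HNRNPF siRNA library. These shares are without TMM scaling, which is described below and was used for CPM. The summed CPM of the 10 genes was 8821 and 7855, a log2 ratio of -0.17 (interval -0.18 to -0.16). HSPA8 and HSP90AA1 made up most of it, with 130168 of 180578 control counts. The other 8 genes together had 2462 and 2451 CPM, a log2 ratio of -0.01 (interval -0.02 to 0.01). Their summed FPKM was 1176 and 1276, so whether these 8 genes were level together depended on the unit.

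Exact matches to the heat shock element were counted in the promoters, and are given as a description of these letters only. The windows searched were the 300 bases from 250 before to 50 after each RefSeq start, 14 windows for the 10 genes, and the motifs were GAANNTTC and TTCNNGAA, each of which reads the same on both strands. A match was found for 7 of the 10 genes and in 8 of the 14 windows, beside 13.5% of 35116 promoter windows of all genes. Arrays of 3 units, in which both motifs overlap, were found for HSPA8, HSP90AA1 and HSPD1, beside 0.490% of all windows. HSPA8 and HSP90AA1 were lower and HSPD1 was near its control level. HSPA1A, HSPA1B, HSPB1 and DNAJB1 held pairs with no further adjoining unit in this exact spelling. HSPE1, HSPH1 and BAG3 held no match in these windows, and the HSPD1 array lies outside the HSPE1 window. A TATAAA box was found for HSPA1A and HSPA1B alone, beside 7.33% of all windows, and CCAAT on either strand for 5 of the genes, beside 34.6%. These shares are of windows, while arrays and boxes were counted by gene. Genes with several windows, DNAJB1, HSP90AA1 and HSPD1, have more places for a match.

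Other chaperones and the heat shock factors lay on both sides of control. Over all 12218 expressed genes, 6127 were higher and 6091 lower. Of 8 expressed heat shock factors and regulators 5 were higher (median 0.04). HSF1 itself had 24.2 and 31.5 FPKM, a log2 ratio of 0.29 (interval 0.17 to 0.41), or 0.17 with the correction for GC content and length. HSF2 was at -0.13 (interval -0.26 to -0.01; corrected -0.07) and the deacetylase SIRT1, which acts on HSF1, at -0.21 (corrected -0.14). Of 15 other HSF1 targets, 8 were higher and 7 lower with a median of 0.02. HMOX1, a haem oxygenase, was at -0.42 (interval -0.74 to -0.11, with 201 and 149 counts). RGS2, a regulator of G protein signalling, was at 0.49 (interval 0.12 to 0.88, with 100 and 140 counts). ZFAND2A was at -0.39 (interval -0.80 to 0.01). HSPA6, an HSP70 that is expressed almost only under severe stress, had 30 and 29 counts.

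Of 9 other genes of the HSP70 and HSP110 families 3 were higher and 6 lower (median -0.04), where 49.85% of expressed genes were lower. HSPA14, which works at the ribosome, was at -0.28 (interval -0.42 to -0.15), HSPA4L at -0.13 and HSPA13 at -0.10, the last turning to 0.01 with the correction. The 2 members at least 1.5-fold higher were HSPA1L (11 and 26 counts) and HSPA12B (9 and 23 counts). Both had few reads and were named after their values were seen. Of expressed genes, 3.4% were higher by as much. Of 25 genes of HSP90 and its co-chaperones 12 were higher and 13 lower (median -0.01), with CDC37L1 at -0.59, NUDCD2 at -0.55 and NUDCD3 at 0.35. Among 22 expressed genes of a list of J-domain proteins 7 were higher and 15 lower (median -0.06), where 49.85% of expressed genes were lower. At 50 CPM or more, a level 12 of these 22 reached, 58.57% of genes were lower. DNAJC21 was at -0.37 and DNAJB4 at -0.35 (corrected -0.23). DNAJB2, with 231 and 292 counts, was at 0.35 (interval 0.10 to 0.60, corrected 0.27). DNAJC12 (25 and 48 counts, named after its value was seen) was the single gene of these 22 at least 1.5-fold higher. That was also true of 3.4% of expressed genes. The exchange factor BAG1 was at 0.30 (corrected 0.16), BAG2 at -0.19 (corrected -0.11) and HSPBP1 at 0.05 (corrected -0.09), and 3 of the 6 exchange factors listed were higher (median 0.01). Of 9 other genes listed by name as small heat shock genes only HSPB8 and HSPB11 were expressed. HSPB11, listed for its symbol alone, was at 0.06 (interval -0.12 to 0.24, corrected -0.05) and HSPB8 at -0.22, with 58 and 49 counts. HSPA14 and DNAJC21 have fractional counts and are less certain.

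The cytosolic chaperonin TRiC, a ring of 8 kinds of subunit that folds actin and tubulin, and prefoldin, which brings it clients, made up a list of 14 genes with a median of -0.09. All TRiC subunits lay between -0.13 and 0.02, with 7 of 8 lower. Among the 5040 genes at 50 CPM or more, a level all TRiC subunits reached, 2952 were lower and the median was -0.04. Prefoldin genes ran from -0.20 for PFDN1 to 0.32 for PFDN2, with 3 higher and 3 lower, PFDN6 at 0.28 among them, and PFDN2 and PFDN6 were at 0.16 and 0.09 with the correction. In mitochondria HSPA9, the HSP70 that pulls in imported proteins, was at -0.14 (interval -0.18 to -0.11; corrected -0.09), the protease subunit CLPP at 0.33 (corrected 0.15), the exchange factor GRPEL2 at 0.30 and the J-domain protein HSCB at -0.24 (interval -0.61 to 0.12), and 9 of 18 genes of the list were higher (median -0.02). Chaperones of the endoplasmic reticulum were lower in 11 of 14 genes (median -0.13), among them CALR at -0.70 and HSPA5 at -0.34, with CRELD2 at 0.26 (corrected 0.13). Of these 14 genes 11 reached 50 CPM, where 2952 of 5040 genes were lower. The corrected medians of the HSP70 and HSP110 list (0.01), the exchange factors (-0.01), the heat shock factors (-0.01) and the other HSF1 targets (-0.04) had the opposite sign to those above, so none of these lists has a settled direction. No median was tested against that of all expressed genes, 0.00.

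**Figure D5:**
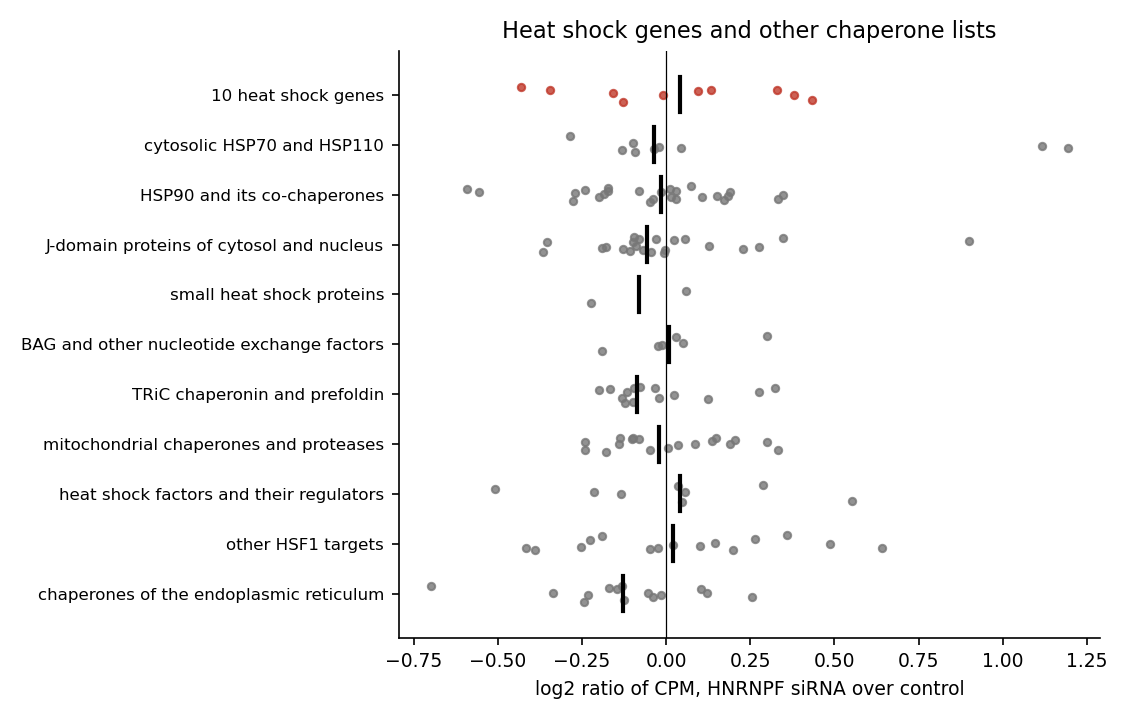
Log2 ratio of CPM, HNRNPF siRNA over control (x axis), of the 10 heat shock genes (red) and of the expressed genes of 10 other lists (grey), 1 point per gene, with a black bar at each median. The medians lie between -0.13 and 0.04, and the 10 heat shock genes spread on both sides of 0.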

How the data were processed

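Messenger RNA was selected with oligo(dT) and sequenced on Illumina libraries, per the labels' protocols. For the build GRCh38, the submitters' processing notes list RSEM, HISAT2, StringTie 1.3.1 and fastp 0.18.0 without saying what each did. The annotation and strand setting are not stated there. The authors deposited estimated counts per gene (expected counts, unscaled; not whole in 11.6% and 12.0% of genes). They also deposited FPKM per library, a unit scaled to transcript length and depth. The log2 fold change deposited by the authors is the log2 ratio of their FPKM values. The p-value and false discovery rate deposited by the authors come from a test that is not described, and were not used, nor were another 2 columns of per-library values. Gene coordinates and transcripts were those of GENCODE 29 (GRCh38), where all 10 genes were found, and promoters those of RefSeq (GRCh38.p14).

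Counts were rounded to integers. TMM scaling in edgeR 4.0.16 gave effective library sizes of 20471293 and 20314875. The log2 ratio of CPM used a prior count of 2, and its interval is the exact 95% Clopper-Pearson interval of the part of a gene's counts that fell in one library, computed with scipy 1.17.1. These intervals cover counting error only, since 1 library in each group gives no spread between cultures. They take rounded estimated counts as exact. Amplified reads are not independent molecules, so the intervals can be too narrow even for counting error. No test between groups was possible. The ratio was tested on simulated data. Members, lists and rules were chosen with earlier results of these data known. The genes named are HNRNPF, the 10 members, from each list up to 3 genes with the largest difference at 5 CPM and 50 counts or more, and HSP90AB1, HSPA9, HSF1, HSPA5 and HSPA6. Any other gene was named after its value was seen. Alternatives were other size factors, total counts, another prior count, other minimums, the authors' FPKM, each gene left out, and a correction for GC content and length.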

Additional observations from a re-analysis of the deposited data

How the results depend on the processing

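With total counts in place of TMM, with the size factors of DESeq2 1.42.0, with a prior count of 0.5, or with the authors' FPKM and a pseudocount of 0.1, the log2 ratios of the 10 genes shifted by at most 0.0354. Total counts shift the 10 genes by 0.0252 to 0.0258. The numbers of genes past 1.2-fold were 3 and 2 under each of these settings. After correction for GC content and length, an alternative added after seeing the data, they were 2 and 2: HSPB1 went from 0.38 to 0.16, and HSPA1B stood at 0.26, at the edge of 1.2-fold. This correction moved 7 of the 10 genes beyond their counting error, HSP90AA1 from -0.16 to -0.10, and the median to 0.05; its use on the other lists was also added after seeing the data. HSPD1, near 0, changed sign under 3 settings. The median of the 10 genes was -0.01 at a minimum of 50 CPM, -0.01 with HSPA1A and HSPA1B summed, and -0.13 without the 3 genes whose counts are not whole (HSPA1A, HSPA1B and HSPE1). The summed level had a log2 ratio of -0.17, of -0.0066 without HSPA8 and HSP90AA1, of -0.10 by the authors' FPKM, and between -0.1903 (without HSPD1) and -0.094 (without HSPA8) with each gene left out in turn. The sum of FPKM gives more weight to short transcripts than the sum of counts by its construction. HNRNPF ran from -1.38 to -1.32 and HSPA1A and HSPA1B summed from 0.31 to 0.35 under the settings run for them. No paired analysis was possible because each group has 1 library. Depth limits HSPA1A, with about 100 counts.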

Other observations

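A minimum of 1000 CPM in the higher library, chosen after seeing the data, kept 73 genes. Of these, 2 were at or below the log2 ratio of HSPA8, -0.34. They were MKI67 and HSPA8 itself, which this limit includes by construction. The median of the 73 was -0.02. The FPKM and counts of a gene together imply the length that the authors' counting gave it. For HSPH1 this was 3537 bases in control cells and 3547 with the HNRNPF siRNA, against 5191 bases of its GENCODE transcript used here. For HSPE1 it was 554 and 555 bases, against 950. An implied length is an effective length and can average over transcripts, so it is a measure unlike the full length of 1 transcript.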
